A study of Mus musculus with 20 samples.

Results

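In Dp1Tyb mice 1 copy of chromosome 16 holds the genes between Lipi and Zbtb21 in duplicate, and the kinase gene Dyrk1a is among them. The comparison described here set E13.5 embryonic hearts with 3 functional copies of Dyrk1a against hearts with 2, for genes outside that stretch. The members were chosen by position alone, and 48562 of the 48795 genes in the table lie outside the stretch. Of these, 15208 averaged 10 or more normalized counts across the 20 hearts and were tested. The 3-copy group held 5 hearts labelled Dp1Tyb. The 2-copy group held 15 hearts, of which 10 were WT and 5 were labelled Dp1TybDyrk1a+/+/-. The latter carry the duplication together with 1 inactivated Dyrk1a allele, so they still have 3 copies of the other genes of the stretch. Each library was made from the whole heart of 1 embryo, with no cell sorting, and all mice were on a C57BL/6J background. Per the study's methods controls were littermates and Dp1TybDyrk1a+/+/- mice were kept as a separate strain, so the WT hearts may come from litters of both strains. The labels do not tie hearts to litters, and strain or litter and genotype cannot be told apart. The duplication and the inactivated allele are constitutive and present in every cell type. In whole hearts, fewer cells of a type and less RNA per cell cannot be told apart.

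DYRK1A is a kinase that phosphorylates D-type cyclins, which marks them for degradation, and the LIN52 subunit of the DREAM complex, which allows the complex to assemble. DREAM joins a pocket protein (p107 or p130, encoded by Rbl1 and Rbl2) to an E2F factor and the MuvB core, and it represses cell cycle genes in cells that have left the cycle. Cyclin D with CDK4 or CDK6 phosphorylates RB1 and the pocket proteins, which releases E2F factors and lets cells enter S phase. Short promoter motifs are known for this control. E2F factors bind E2F motifs, which are common in genes of the G1 to S transition, and MuvB binds the cell cycle homology region (CHR), which is common in genes of G2 and mitosis.

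Promoter letters of 4 cell cycle genes that were lower in Dp1Tyb hearts are given here because each window holds both kinds of motif. The windows came from RefSeq (GRCm38.p6), 250 bases before to 50 bases after a transcript start, and capitals mark the CHR letters (TTTGAA or TTCGAA, either strand) and the E2F letters (TTTGGCGC, TTTCCCGC, TTTGCCGC or TTTCGCGC, either strand).
Kif15 (chr9:122951043-122951072, + strand; first E2F, then CHR): ggtccgttgggGCGCCAAATTCAAAtctgc
Bard1 (chr1:71103142-71103222, - strand; first CHR, then E2F): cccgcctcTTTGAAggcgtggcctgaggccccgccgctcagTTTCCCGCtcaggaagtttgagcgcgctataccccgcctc
Ncapg (chr5:45669883-45669912, + strand; CHR): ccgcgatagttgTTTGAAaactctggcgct
Ncapg (chr5:45669945-45669974, + strand; E2F): tgtcggaagccGCGGGAAActgagtcctcc
Ncapd2 (chr6:125191692-125191721, - strand; CHR): cagccgttgaggTTTGAAcagggaattgcg
Ncapd2 (chr6:125191576-125191605, - strand; E2F): ccatctcgttgTTTGGCGCgtatcctgccc
The Kif15 window holds another CHR match at -234, which is not printed. In Kif15 the printed E2F and CHR letters lie directly beside each other, with first bases at -27 and -19 from the transcript start. In Ncapg the E2F letters begin at base 32, counted with the transcript start as the first base. The Bard1 stretch ends at the base before the annotated gene. The Kif15 stretch lies just before Kif15 and inside the neighbouring gene 1110059G10Rik. The Ncapg stretches lie at or inside the edge of Ncapg, and the Ncapd2 stretches lie inside Ncapd2, whose upstream edge is at base 125192100. For Bard1, Ncapg and Ncapd2 the transcript start used lies inside the annotated gene. A match of letters is a description and not a bound site.

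The value of Dyrk1a itself was examined in every heart. In the Dp1Tyb hearts 3, 4, 6, 7 and 12 its log2 value was 11.65, 11.66, 11.71, 11.75 and 11.67. In the WT hearts it lay between 11.28 and 11.43 with a median of 11.36, and in the hearts labelled Dp1TybDyrk1a+/+/- between 11.70 and 11.85 with a median of 11.75. All 10 WT hearts were thus below every duplication heart, and the hearts with the inactivated allele were not below the Dp1Tyb hearts. Against the 15 pooled hearts the Dp1Tyb mean was higher by 0.19 on the log2 scale (exact two-sided permutation test over 15504 regroupings, p = 0.0408), with a limma adjusted p of 0.236. The inactivated allele lacks only part of the gene, and a value summed over the whole gene does not check that label. Within the values used here, the number of functional copies therefore rests on the labels. The study's authors report an exon deletion in that allele, seen by RNAseq. By mass spectrometry they also report more DYRK1A protein in Dp1Tyb than in Dp1TybDyrk1a+/+/- hearts. Neither report was checked here. The 96 tested genes of the stretch had a median log2 fold change against WT of 0.30 in Dp1Tyb hearts and 0.32 in hearts labelled Dp1TybDyrk1a+/+/-, below the 0.585 that a copy number ratio of 3 to 2 gives on the log2 scale. Ddx3y, a Y-linked gene, still had log2 values of up to 7.89 in hearts with high Xist, against at least 10.3 in the others. Differences on the deposited scale may therefore be smaller than differences in RNA, also for genes that are not low.

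High Xist, the X-inactivation RNA of female cells, was found in 4 of 5 Dp1Tyb hearts and in 4 of 15 pooled hearts, of which 3 of 10 were WT and 1 of 5 was labelled Dp1TybDyrk1a+/+/-. Embryo sex was therefore partly confounded with the comparison, and counts with the Xist value as a covariate stand beside the main counts. WT heart 10 and Dp1TybDyrk1a+/+/- heart 15 stood apart, with root mean square deviations from the median heart of 0.143 and 0.221 against 0.0541 to 0.107 in the other 18 hearts. Both are in the 2-copy group. The lanes given in the library names were 3, 6 and 7, and each held hearts of all 3 genotypes. Dp1Tyb hearts numbered 2, 2 and 1 in these lanes, hearts labelled Dp1TybDyrk1a+/+/- 1, 1 and 3, and WT hearts 4, 4 and 2. Every difference given below for lane 7 therefore rests on Dp1Tyb heart 12 alone. Read totals were not analysed here, so depth is unknown and precision rests on the spread between hearts.

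Of the 15208 genes, 372 (2.45%) differed between the Dp1Tyb and the pooled hearts at an adjusted p under 0.05 (limma, Benjamini-Hochberg over all tested genes). Of these, 210 (1.38%) were lower and 162 (1.07%) were higher in Dp1Tyb hearts. Median log2 fold changes, as deposited, were -0.11 (-7.6%) among the lower genes and 0.12 (8.74%) among the higher genes, and 22 genes differed by more than 0.2. These sizes hold for the deposited scale only. The largest called differences were -0.345 for Ky and 0.37 for Vwf. In 108 of the called genes, 65 lower and 43 higher, all 5 Dp1Tyb hearts lay outside the range of all 15 pooled hearts. Without regard to the test, 150 genes (0.986%) showed no overlap. With Xist as a covariate 79 genes were called, of which 78 were among the 372, and without the pair of hearts that stood apart 984 were called, among them all 372. With both changes together 490 were called, of which 273 were among the 372. With Xist as a covariate the median log2 fold change of the 210 lower genes was -0.11 and that of the 162 higher genes was 0.115, so the sizes moved little while fewer genes passed the test. Among hearts with high Xist alone (4 against 4) 0 genes were called by limma and 1686 had an unadjusted p under 0.05. Leaving out Dp1Tyb heart 4 gave 94 called genes, leaving out Dp1Tyb heart 3, 6, 7 or 12 gave 157, 145, 215 or 150, and leaving out Dp1TybDyrk1a+/+/- heart 15 gave 735. When each heart was centred on its median, 238 genes were lower and 120 higher.

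**Figure D1:**
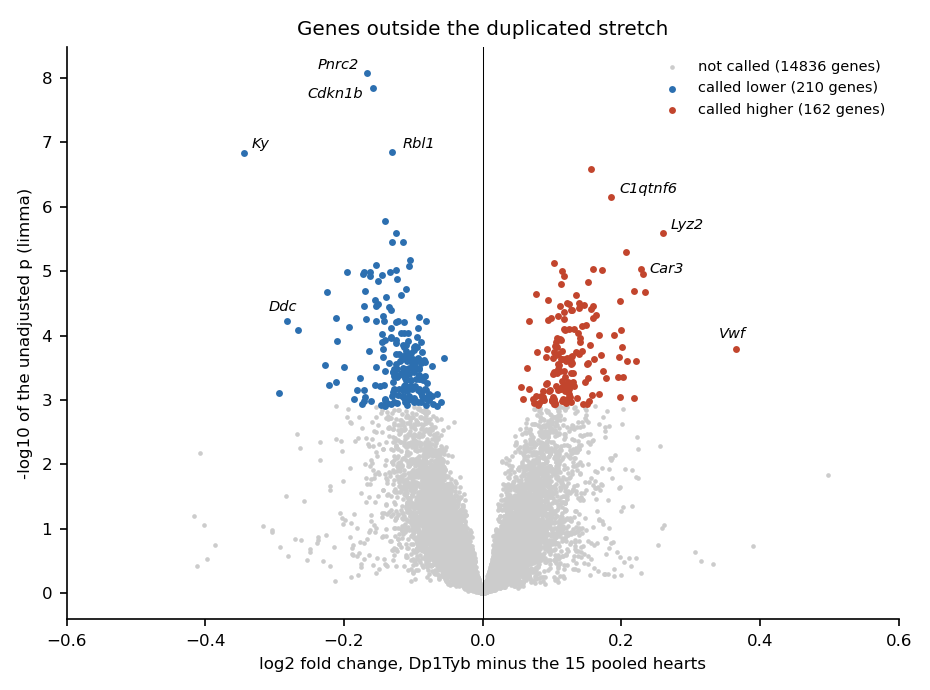
Each point is 1 of the 15208 tested genes outside the duplicated stretch, with the log2 fold change (Dp1Tyb minus the mean of the 15 pooled hearts) on the x axis and -log10 of the unadjusted limma p on the y axis. The 210 genes called lower (blue) and 162 called higher (red) mostly lie within 0.2 of 0, and 10 genes beyond 0.6, of which 0 were called, are outside the axis.

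Every cell cycle list examined had members that were lower in Dp1Tyb hearts, and 0 members of these lists were called higher. The mitosis, spindle and kinetochore list had 30 of 69 tested members called lower (43.5%), and the condensin, cohesin and topoisomerase list had 13 of 26 (50%). The shares were 4 of 17 (23.5%) for high mobility group and linker histone genes, 7 of 31 (22.6%) for homologous recombination and DNA damage genes and 10 of 60 (16.7%) for DNA replication genes. The share was 31 of 193 (16.1%) for the Hallmark E2F target set as read from the study's tables, 3 of 20 (15%) for E2F, pocket protein and DREAM genes and 3 of 23 (13%) for cyclins, CDKs and CDK inhibitors. The lists share genes. They were chosen with results of these hearts known, so their direction is not independent evidence.

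The members that did not pass the test mostly had values below 0 as well. The log2 fold change was below 0 in 67 of 69 mitosis genes, 58 of 60 replication genes, 30 of 31 recombination genes and 24 of 26 condensin and cohesin genes, while it was below 0 in 7600 of all 15208 tested genes. Cyclins, CDKs and CDK inhibitors were divided, with 13 below and 10 above 0. Median log2 fold changes were -0.11 for mitosis, -0.094 for condensin and cohesin, -0.064 for replication and -0.023 for the cyclin list, against 5.04e-05 over all tested genes. With Xist as a covariate the same medians were -0.11, -0.088, -0.0735 and -0.028, and the numbers called lower were 11, 7, 2 and 2. In that fit 9 Hallmark E2F targets, 2 genes each of the DREAM and high mobility group lists and 0 recombination genes were called. Without the pair of hearts that stood apart, 54 mitosis genes, 22 replication genes and 20 condensin and cohesin genes were called lower.

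**Figure D2:**
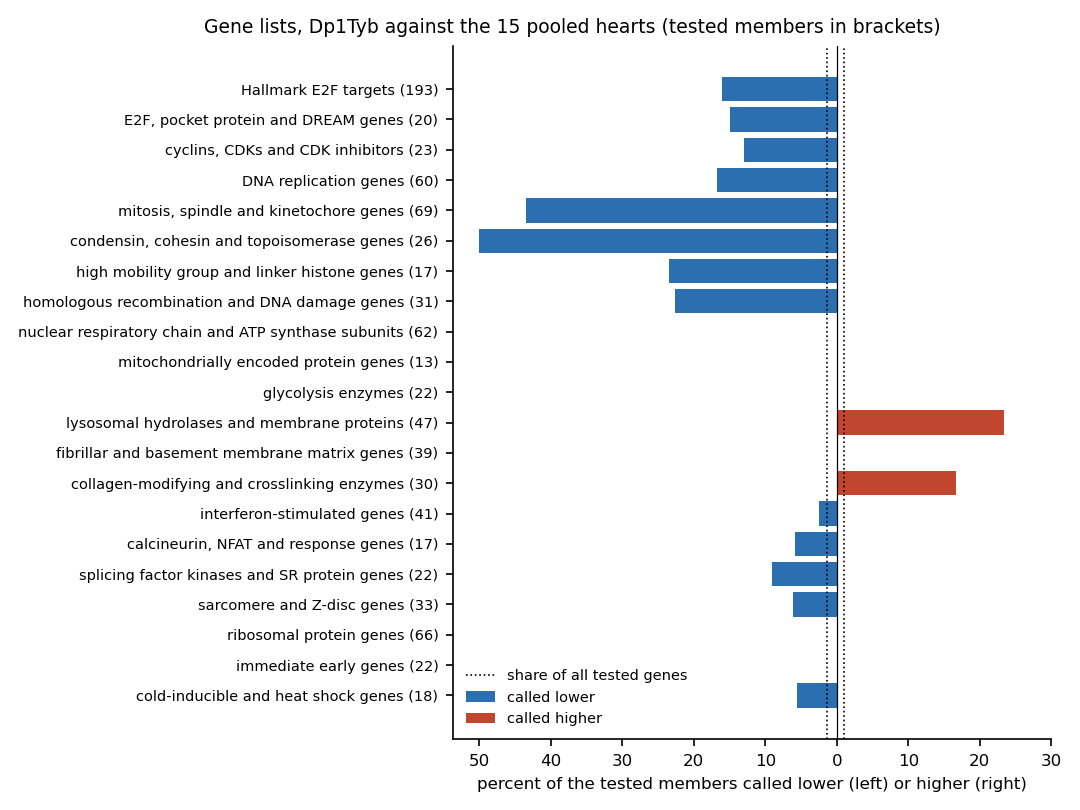
Bars give the percent of the tested members of each list called lower (left, blue) or higher (right, red) in Dp1Tyb hearts, with the number of tested members in brackets and dotted lines at the shares of all tested genes (1.38% lower, 1.07% higher). The cell cycle lists extend only to the left, up to 50%, and the lysosomal and collagen-modifying lists only to the right.

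Among regulators of the cycle, Cdkn1b, which encodes the CDK inhibitor p27, was lower in Dp1Tyb hearts. Its log2 value in hearts 3, 4, 6, 7 and 12 was 10.52, 10.56, 10.55, 10.51 and 10.55, and in the pooled hearts it ran from 10.65 through a median of 10.69 to 10.77. All 5 Dp1Tyb hearts lay below all 15 pooled hearts, with a log2 fold change of -0.16 (SE 0.018, adjusted p = 0.000108). The difference was -0.16 against WT alone and -0.16 against the hearts labelled Dp1TybDyrk1a+/+/- alone. It was -0.16 in lane 3, -0.154 in lane 6 and -0.16 in lane 7, which held 1 Dp1Tyb heart. Ccna2, encoding cyclin A2 of S and G2 phase, had values of 11.97, 11.97, 12.01, 12.03 and 12.04 in the Dp1Tyb hearts and ran from 12.09 through 12.15 to 12.27 in the pooled hearts. Again no heart overlapped, and the log2 fold change was -0.16 (SE 0.029, adjusted p = 0.00587). The third called member of the list was Cdkn2c, encoding the CDK4 and CDK6 inhibitor p18 (-0.15, SE 0.036, adjusted p = 0.0243), whose values overlapped with those of 1 pooled heart. Cdkn1b and Ccna2 passed the test with Xist as a covariate (adjusted p = 0.00177 and 0.0397), and Cdkn2c did not (adjusted p = 0.0645). Both inhibitors and the cyclin were thus lower in the same hearts.

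Rbl1 encodes the pocket protein p107. Its values in the Dp1Tyb hearts were 10.08, 10.06, 10.04, 10.06 and 10.03, and the pooled hearts ran from 10.14 through 10.19 to 10.24. Every Dp1Tyb heart was below every pooled heart, and the log2 fold change was -0.13 (SE 0.017, adjusted p = 0.000439). It passed the test with Xist as a covariate as well (-0.13, adjusted p = 0.00647). Foxm1, which encodes a transcription factor of G2 and mitotic genes, differed by -0.12 (SE 0.022, adjusted p = 0.00629). Its highest Dp1Tyb value of 10.54 lay above the lowest pooled value of 10.53, so the groups touched in 1 heart. Lin54, whose product is the MuvB subunit that contacts the CHR, differed by -0.12 (SE 0.032, adjusted p = 0.042) with 5 of 15 pooled hearts inside the Dp1Tyb range. Lin54 did not pass the test with Xist as a covariate (-0.11, adjusted p = 0.178). It was called in 11 of the 20 fits that left out 1 heart.

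Genes of DNA replication came next. Clspn encodes Claspin, an adaptor of the replication checkpoint. It measured 9.52, 9.51, 9.46, 9.51 and 9.43 in the Dp1Tyb hearts and from 9.55 through 9.63 to 9.82 in the pooled hearts. The groups did not overlap, and the log2 fold change was -0.14 (SE 0.032, adjusted p = 0.0191). Mcm10, which takes part in firing of replication origins, measured 8.74, 8.73, 8.68, 8.75 and 8.70 against 8.78 through 8.85 to 8.995. All Dp1Tyb hearts were again the lowest, with a log2 fold change of -0.13 (SE 0.026, adjusted p = 0.01). The histone chaperone gene Nasp (-0.13, adjusted p = 0.0132) and Cdc45, a part of the replicative helicase (-0.11, adjusted p = 0.0345), were also lower. Pooled hearts inside the Dp1Tyb range numbered 1 for Nasp and 7 for Cdc45. Cdc45 lies on chromosome 16 but outside the duplicated stretch. Of these 4 genes, Mcm10 passed the test with Xist as a covariate (adjusted p = 0.00811) and Clspn, Nasp and Cdc45 did not (adjusted p = 0.0917, 0.0518 and 0.139).

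In the recombination and DNA damage list, Blm, a helicase gene, Rbbp8, which encodes the end-resection factor CtIP, Bard1, encoding the partner of BRCA1, and the checkpoint kinase gene Atr had the largest differences among the 7 called genes (-0.15, -0.12, -0.12 and -0.11), while Brca2, which had the largest of the list, did not pass the test (-0.19). For Bard1, whose upstream stretch is printed above, the Dp1Tyb values were 8.82, 8.83, 8.81, 8.87 and 8.86, and the pooled hearts ran from 8.855 through 8.95 to 9.06. The groups overlapped in 1 pooled heart, and the adjusted p was 0.0144 (SE 0.025). Blm was close to the threshold (adjusted p = 0.0494) and was called in 4 of the 20 fits that left out 1 heart. None of Blm, Rbbp8, Bard1 and Atr passed the test with Xist as a covariate (adjusted p = 0.222, 0.0808, 0.0655 and 0.105).

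The mitosis list held the largest number of called genes. Cenpf, which encodes a large kinetochore protein, had the largest difference among the called genes at -0.22 (SE 0.055, adjusted p = 0.0345), with 2 pooled hearts inside the Dp1Tyb range. The proliferation marker Mki67 had a larger difference of -0.23 without passing the test (adjusted p = 0.128). Knl1, encoding the outer kinetochore scaffold, measured 10.17, 10.10, 10.17, 10.27 and 10.26 in the Dp1Tyb hearts and from 10.29 through 10.35 to 10.52 in the pooled hearts. Prc1, encoding a bundler of the central spindle, measured 11.35, 11.35, 11.42, 11.42 and 11.41 against 11.49 through 11.52 to 11.67. Both genes separated the groups without overlap, with log2 fold changes of -0.17 (SE 0.034, adjusted p = 0.0113) and -0.16 (SE 0.028, adjusted p = 0.00587). Kif15 encodes a kinesin of the bipolar spindle and holds adjoining E2F and CHR letters. It measured 9.61, 9.54, 9.52, 9.54 and 9.58 in the Dp1Tyb hearts and from 9.60 through 9.72 to 9.82 in the pooled hearts. Dp1Tyb heart 3 lay just above the lowest pooled heart and the other 4 lay below it, and the log2 fold change was -0.155 (SE 0.029, adjusted p = 0.00945). Within lanes 3, 6 and 7 the difference was -0.153, -0.155 and -0.147. Knl1, Prc1 and Kif15 also passed the test with Xist as a covariate (adjusted p = 0.0464, 0.0392 and 0.00811), and Cenpf did not (adjusted p = 0.113).

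Genes for the packing and pairing of chromosomes had the highest share of called members. Smc4 encodes an ATPase of condensin. It measured 12.30, 12.28, 12.33, 12.34 and 12.36 in the Dp1Tyb hearts and from 12.43 through 12.47 to 12.65 in the pooled hearts. All Dp1Tyb hearts were below all pooled hearts, and the log2 fold change was -0.17 (SE 0.030, adjusted p = 0.00587). The condensin subunit genes Ncapg (-0.098, SE 0.022, adjusted p = 0.0193) and Ncapd2 (-0.10, SE 0.026, adjusted p = 0.0364), whose motif windows are printed above, differed by less. Each overlapped with 1 pooled heart. Top2a, encoding topoisomerase II alpha, differed by -0.14 (SE 0.029, adjusted p = 0.0113), and Esco2, which encodes an acetyltransferase that locks cohesin around sister chromatids, by -0.17 (SE 0.031, adjusted p = 0.00818). Rec8, which encodes the cohesin kleisin known from meiosis, measured 7.83, 7.83, 7.77, 7.73 and 7.90 against 7.80 through 8.06 to 8.13. Only 1 pooled heart fell inside the Dp1Tyb range, and the log2 fold change was -0.22 (SE 0.042, adjusted p = 0.00818). With Xist as a covariate Ncapg did not pass the test (adjusted p = 0.0783), while Smc4, Ncapd2, Top2a, Esco2 and Rec8 did.

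In the high mobility group and linker histone list 4 of 17 genes were lower. H1f0, encoding the linker histone H1.0 that is known to be enriched in cells leaving the cycle, differed by -0.195 (SE 0.034, adjusted p = 0.00587). Hmgb2 (-0.15, SE 0.029, adjusted p = 0.00959), Hmgb3 (-0.145, SE 0.026, adjusted p = 0.00587) and Hmgn2 (-0.10, SE 0.023, adjusted p = 0.0215) encode high mobility group proteins that bind DNA or nucleosomes. Hmgb2 and Hmgn2 separated the groups without overlap, and in H1f0 and Hmgb3 1 pooled heart overlapped. Hmgb3 lies on the X chromosome. Fitted with Xist as a covariate, H1f0 and Hmgb3 passed the test (adjusted p = 0.0121 and 0.0365), and Hmgb2 and Hmgn2 did not (adjusted p = 0.0575 and 0.0715).

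**Figure D3:**
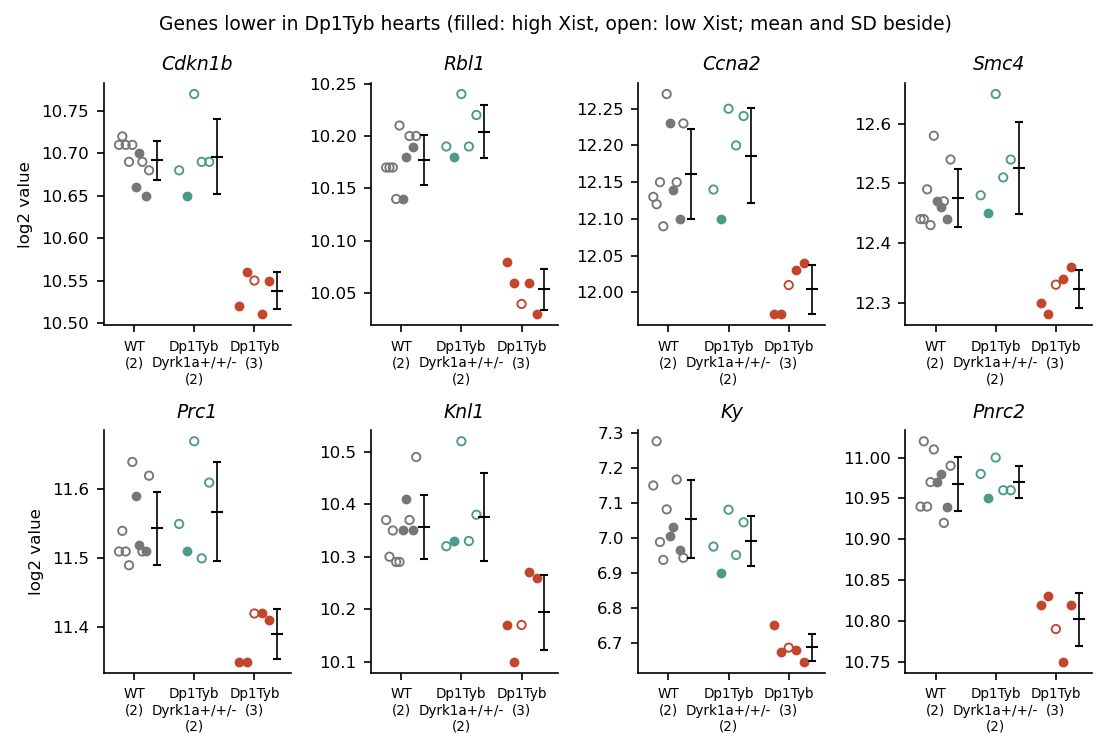
Log2 value in each of the 20 hearts for 8 genes lower in Dp1Tyb hearts, by genotype with the number of functional Dyrk1a copies in brackets. Filled points are hearts with high Xist, open points hearts with low Xist, and the bar beside each group is its mean and SD. All 5 Dp1Tyb hearts lie below both groups with 2 functional copies in each panel. For Ccna2, Smc4, Knl1, Ky and Pnrc2 this was a condition of their choice.

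Of the other genes that were lower, Ky had the largest difference. It encodes a muscle protein of the Z-disc. Its values were 6.753, 6.675, 6.688, 6.682 and 6.648 in the Dp1Tyb hearts and ran from 6.902 through 7.007 to 7.276 in the pooled hearts, with no overlap. The log2 fold change was -0.345 (SE 0.045, adjusted p = 0.000439), and it was -0.26, -0.40 and -0.39 within lanes 3, 6 and 7. In the sarcomere and Z-disc list, Ky and Nrap, which encodes a scaffold of developing myofibrils (-0.21, SE 0.045, adjusted p = 0.0165), were the 2 of 33 members called. Pnrc2, encoding a coactivator of nuclear receptors that also acts in mRNA decay, measured 10.82, 10.83, 10.79, 10.75 and 10.82 against 10.92 through 10.97 to 11.02. The groups were widely separated relative to their spread, with a log2 fold change of -0.17 (SE 0.018, adjusted p = 0.000108), and the difference was -0.17 against WT alone and -0.17 against the hearts labelled Dp1TybDyrk1a+/+/- alone. The muscarinic acetylcholine receptor gene Chrm2 (-0.20), the phosphatase gene Ppm1e (-0.17) and the splicing repressor gene Ptbp2 (-0.17) also separated the groups. The same held for Sh3kbp1, an adaptor of receptor endocytosis (-0.23), and Dgkk, a diacylglycerol kinase (-0.21), both on the X chromosome. Lack of overlap was a condition for naming Ky, Pnrc2, Chrm2, Ppm1e, Ptbp2, Sh3kbp1 and Dgkk. In the fit with Xist as a covariate Ppm1e passed the test (adjusted p = 0.0347), and Ptbp2, Chrm2, Sh3kbp1 and Dgkk did not (adjusted p = 0.0626, 0.101, 0.14 and 0.197). Dyrk1b, the closest paralogue of Dyrk1a, was lower as well (-0.13, SE 0.028, adjusted p = 0.0158). It was called with Srsf5, encoding a splicing factor (-0.12, adjusted p = 0.0466), as 2 of 22 members of the splicing kinase and SR protein list, and reads shared between Dyrk1b and Dyrk1a were not examined. When Xist was added as a covariate, 0 members of that list were called, with adjusted p = 0.0834 for Dyrk1b and 0.0724 for Srsf5, and Nrap did not pass either (adjusted p = 0.0788). Srsf5 was called in 3 of the 20 fits that left out 1 heart.

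Genes of lysosomes were higher in Dp1Tyb hearts, with 11 of 47 tested members called higher (23.4%) and 0 called lower. The log2 fold change was above 0 in 41 of the 47, and the median was 0.076. Hexa, encoding the alpha subunit of beta-hexosaminidase, measured 10.31, 10.27, 10.28, 10.25 and 10.26 in the Dp1Tyb hearts and from 10.04 through 10.10 to 10.23 in the pooled hearts. The groups did not overlap, with a log2 fold change of 0.16 (SE 0.028, adjusted p = 0.00587). Here the 2 kinds of 2-copy hearts were unlike each other, since Hexa was also higher by 0.10 in hearts labelled Dp1TybDyrk1a+/+/- than in WT hearts (adjusted p = 0.0163). Pld3, which encodes a lysosomal exonuclease, measured 9.799, 9.844, 9.816, 9.866 and 9.924 against 9.629 through 9.688 to 9.796. The lowest Dp1Tyb heart was just above the highest pooled heart, and the log2 fold change was 0.15 (SE 0.028, adjusted p = 0.00672). Ctsk, encoding the collagen-degrading protease cathepsin K (0.20, SE 0.038, adjusted p = 0.00946), and Gaa, encoding the alpha-glucosidase that breaks down glycogen (0.15, SE 0.028, adjusted p = 0.00959), each overlapped with 1 pooled heart. Hexa, Pld3, Ctsk and Gaa passed the test with Xist as a covariate, where 4 members of the list were called. Lyz2, a gene of macrophages, was also higher (0.26, SE 0.041, adjusted p = 0.00394), and its part in the lysosomal result was not tested.

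Enzymes that modify and crosslink collagen were higher in 5 of 30 tested members (16.7%), with a median log2 fold change of 0.068 and values above 0 in 28. P3h4, a cofactor of collagen lysine hydroxylation, measured 9.87, 9.90, 9.86, 9.87 and 9.86 in the Dp1Tyb hearts and from 9.27 through 9.70 to 9.77 in the pooled hearts. No heart overlapped, and the log2 fold change was 0.22 (SE 0.057, adjusted p = 0.0444), or 0.17 without the pair of hearts that stood apart, which had the lowest pooled values. It was called in 7 of the 20 fits that left out 1 heart. Fkbp10, encoding a chaperone of procollagen, measured 11.31, 11.31, 11.29, 11.30 and 11.36 against 11.05 through 11.22 to 11.26. It too separated the groups, by 0.11 (SE 0.025, adjusted p = 0.0271). Pcolce, encoding an enhancer of procollagen C-proteinase (0.14, adjusted p = 0.0144), and the prolyl hydroxylase gene P3h1 (0.11, adjusted p = 0.0215) were higher with 1 pooled heart each inside the range. Once Xist was a covariate, 1 member of the list was called and the median was 0.057, and none of these 4 named genes passed (adjusted p = 0.202, 0.164, 0.0877 and 0.13). The collagens themselves and other matrix genes gave 0 called members of 39, among them Col3a1 (0.17, SE 0.068, adjusted p = 0.188) and Col1a1 (0.18, SE 0.12, adjusted p = 0.446).

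**Figure D4:**
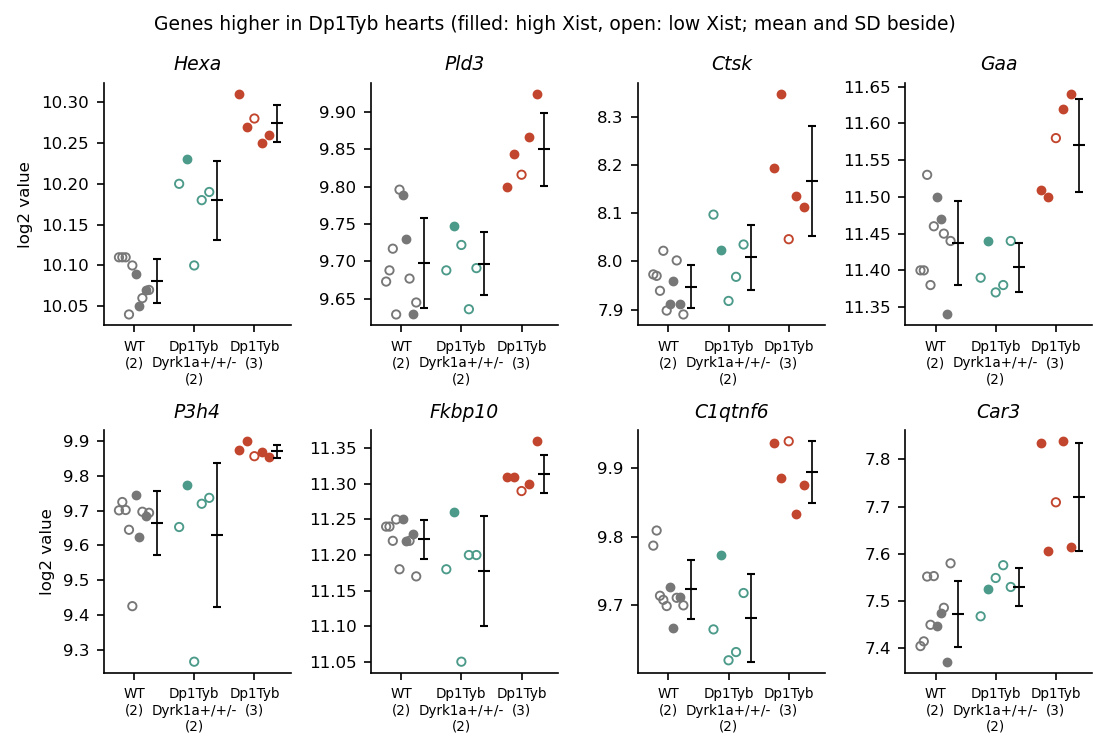
Log2 value in each of the 20 hearts for 8 genes higher in Dp1Tyb hearts, drawn as for the lower genes. The Dp1Tyb hearts lie above all hearts with 2 functional copies in 6 panels, and in the Ctsk and Gaa panels 1 pooled heart overlaps. For Hexa, P3h4, C1qtnf6 and Car3 lack of overlap was a condition of their choice.

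Among the other genes that were higher, C1qtnf6, which encodes a secreted protein of the C1q and TNF-related family, measured 9.94, 9.89, 9.94, 9.83 and 9.88 in the Dp1Tyb hearts and from 9.62 through 9.71 to 9.81 in the pooled hearts. The groups did not overlap, and the log2 fold change was 0.185 (SE 0.027, adjusted p = 0.00153). Car3, encoding carbonic anhydrase III, measured 7.835, 7.605, 7.709, 7.838 and 7.615 against 7.372 through 7.486 to 7.58. Dp1Tyb hearts 3 and 7 were the highest, and hearts 4 and 12 lay just above the pooled range, with a log2 fold change of 0.23 (SE 0.040, adjusted p = 0.00587). That difference was 0.36, 0.20 and 0.071 within lanes 3, 6 and 7. The convertase gene Pcsk6 (0.21), the prostacyclin synthase gene Ptgis (0.18), Adam11 (0.20), Vill (0.22), Unc119 (0.17) and the protease gene Klk8 (0.17) also separated the groups. For these genes, C1qtnf6 and Car3, lack of overlap was a condition for naming them. Fitted with Xist as a covariate, C1qtnf6, Car3, Pcsk6 and Unc119 passed the test, and Ptgis, Adam11, Vill and Klk8 did not (adjusted p = 0.14, 0.0655, 0.0575 and 0.0649). Vwf, encoding von Willebrand factor of endothelium, had the largest called difference (0.37, SE 0.080, adjusted p = 0.019), but it also differed between the 2 kinds of 2-copy hearts, by 0.33 (adjusted p = 0.000502). Its difference was 0.47 against WT alone and 0.15 against the hearts labelled Dp1TybDyrk1a+/+/- alone, and it did not pass the test with Xist as a covariate (adjusted p = 0.0724).

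The lists were then followed heart by heart, as the mean over their tested members of the difference from the 15 pooled hearts. The mitosis list lay between -0.13 and -0.086 in the Dp1Tyb hearts and between -0.043 and 0.062 in the pooled hearts, so the groups did not overlap. The lysosomal list lay between 0.055 and 0.091 in the Dp1Tyb hearts and between -0.030 and 0.031 in the pooled hearts. The collagen-modifying list lay between 0.059 and 0.11 and between -0.049 and 0.049. The replication list overlapped in 1 pooled heart, with -0.11 to -0.047 against -0.060 to 0.042. Within lanes 3, 6 and 7 the difference of the mitosis list was -0.091, -0.095 and -0.12, and that of the lysosomal list was 0.059, 0.056 and 0.10. Among hearts with high Xist (4 against 4) the mitosis difference was -0.10, and among hearts with low Xist, where there was 1 Dp1Tyb heart against 11, it was -0.11. For the replication, lysosomal and collagen-modifying lists the difference among hearts with high Xist was -0.077, 0.068 and 0.0515. Among pooled hearts those with high Xist differed from those with low Xist by -0.0038 for mitosis, 0.014 for replication, 0.0038 for the lysosomal list and 0.036 for the collagen-modifying list. For the collagen-modifying list this lies in the direction of the difference between the groups. The part of embryo sex in these differences was not tested.

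**Figure D5:**
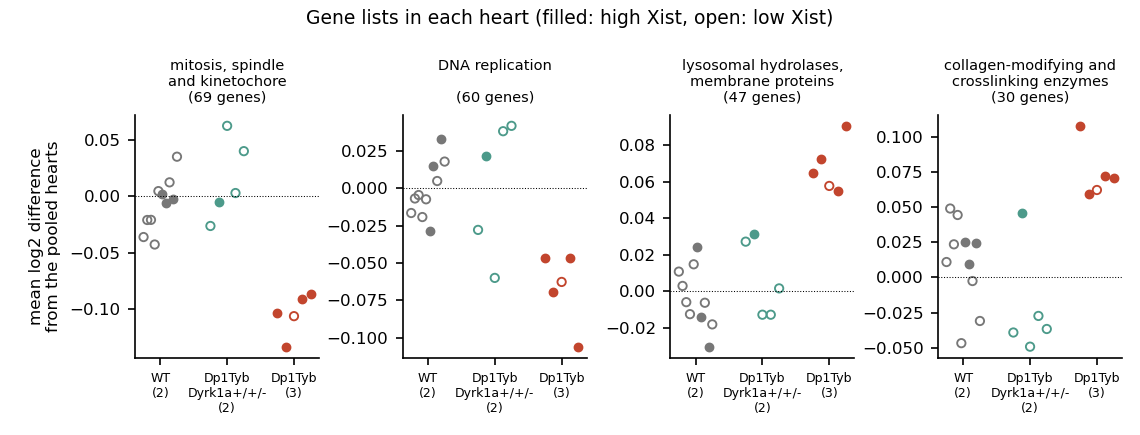
Mean over the tested members of 4 lists of the log2 difference from the 15 pooled hearts, 1 point per heart, filled for high and open for low Xist. The 5 Dp1Tyb hearts lie below 0 for mitosis and replication and above 0 for the lysosomal and collagen-modifying lists, and they do not overlap with the pooled hearts except for 1 heart in the replication panel.

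In the remaining lists 0 to 2 members were called, which is to be read against the 2.45% called among all tested genes. The respiratory chain, mitochondrially encoded, glycolysis, ribosomal protein and immediate early lists had 0 of 62, 13, 22, 66 and 22 tested members called. Their most abundant tested members gave log2 fold changes of -0.036 (Sdha), -0.19 (mt-Co1), 0.0068 (Pkm), -0.042 (Rpl4) and 0.042 (Jund). The respiratory chain list held 75 names, of which 62 were matched to a gene. Its median was -0.0025, and -0.026 without the pair of hearts that stood apart. The 13 mitochondrially encoded genes had a median of -0.24, and -0.12 without the pair of hearts that stood apart, in which mt-Co1 reached 18.54 and 18.97 against at most 18.26 in the other 13 pooled hearts. The interferon-stimulated list had 1 of 41 members called, Ifit2, which was lower (-0.115, adjusted p = 0.0376), while the values of 36 members were above 0. Nfatc2, encoding a target of calcineurin, was the only called member of 17 in the calcineurin list (-0.17, adjusted p = 0.0378), and the cold-inducible gene Rbm3 the only one of 18 in the heat and cold shock list (-0.17, adjusted p = 0.0436). Rbm3 was also lower in hearts labelled Dp1TybDyrk1a+/+/- than in WT hearts by 0.165 on the log2 scale (adjusted p = 0.00688), and its difference against the former alone was -0.059 (adjusted p = 0.384). Rbm3 lies on the X chromosome. It was called in 4 of the 20 fits that left out 1 heart, Nfatc2 in 11 and Ifit2 in 12. In the fit with Xist as a covariate Ifit2 passed the test (adjusted p = 0.0495), and Nfatc2 and Rbm3 did not (adjusted p = 0.173 and 0.151).

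Markers of the cell types that a whole heart holds were read in the same comparison. Called members numbered 0 in the lists for ventricular and atrial cardiomyocytes, epicardium, cushion mesenchyme and fibroblasts, smooth muscle and pericytes, erythroid cells and neighbouring tissues. Vwf was the only called member of 12 for endothelium, Lyz2 and Ltf were 2 of 14 for macrophages and neutrophils, and the neural marker gene Ddc was 1 of 9 (-0.28, SE 0.057, adjusted p = 0.0113), with 1 pooled heart below all Dp1Tyb hearts. Over all tested genes 1.07% were called higher and 1.38% lower. Ltf was a low gene, with mean log2 values of 4.08 in Dp1Tyb and 3.92 in pooled hearts. It was called in 7 of the 20 fits that left out 1 heart. When Xist was added as a covariate, Lyz2 passed the test (adjusted p = 0.018), and Ltf and Ddc did not (adjusted p = 0.205 and 0.0783). The macrophage and neutrophil list summed to 2510 to 2940 normalized counts in WT hearts, 2580 to 2770 in hearts labelled Dp1TybDyrk1a+/+/- and 2660 to 2970 in Dp1Tyb hearts, so these ranges overlapped. The ventricular list summed to 206000 to 264000, 213000 to 240000 and 199000 to 218000, and the cushion mesenchyme and fibroblast list to 123000 to 168000, 126000 to 174000 and 149000 to 170000. No marker of these lists was at 0 in every heart. The ventricular markers Myh7 (-0.16, SE 0.062, adjusted p = 0.173) and Myl2 (-0.15, SE 0.051, adjusted p = 0.111) lay below 0 without passing the test. The median log2 fold change was 0.084 for cushion mesenchyme and fibroblasts, with values above 0 in 11 of 12 members. It was -0.076 for ventricular markers, with 5 of 7 below 0, and 0.057 for atrial markers, with 6 of 7 above 0. With Xist as a covariate these medians were 0.069, -0.044 and 0.0405. Without the pair of hearts that stood apart they were 0.109, -0.072 and 0.0534. In list means per heart, Dp1Tyb and pooled hearts overlapped for each of these lists. By single-cell RNAseq the study's authors report proportionally fewer cardiomyocytes and more fibroblasts and vascular endothelial cells in Dp1Tyb than in WT hearts. That report was not checked here. The part of cell composition in the differences above was not tested.

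The 2 kinds of 2-copy hearts were also compared with each other. Between them 40 of 15208 genes (0.263%) were called, at a fit with 1 mean per genotype. That count was 142 without the pair of hearts that stood apart, 89 without WT heart 10 alone, 70 without Dp1TybDyrk1a+/+/- heart 15 alone and 21 without Dp1TybDyrk1a+/+/- heart 17 alone. Against WT alone 399 genes were called in Dp1Tyb hearts and against the hearts labelled Dp1TybDyrk1a+/+/- alone 176, and these comparisons share the Dp1Tyb hearts with the pooled one. The median log2 fold change of the mitosis list was -0.099 against WT, -0.13 against Dp1TybDyrk1a+/+/- and 0.023 between the 2 kinds of 2-copy hearts. For the lysosomal list the same values were 0.072, 0.079 and -0.0084. For the interferon-stimulated list they were 0.091, 0.031 and 0.086, so its level in hearts labelled Dp1TybDyrk1a+/+/- lay above that in WT hearts.

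The called genes also differed from all tested genes in level, exon length, biotype and X linkage. Level entered the filter and the trend of the limma fit, so it was not a feature apart from the test. The lower genes had a median log2 value of 9.87 and a median total exon length of 7.63 kb, and the higher genes of 8.59 and 5.31 kb, against 8.67 and 6.06 kb over all tested genes. Protein-coding genes made up 95.7% of the lower and 100% of the higher genes, against 90.3% of all tested. Of 549 tested X-linked genes, 18 (3.28%) were lower and 1 (0.182%) was higher, against 1.38% and 1.07% of all tested genes. With Xist as a covariate 1 X-linked gene was lower and 1 higher. Over all tested genes that fit left 44 of 210 lower and 35 of 162 higher calls by number.

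Promoter motifs were counted in the RefSeq windows of called cell cycle genes. CHR letters were present in 54.7% of the 75 windows of the 81 called lower genes that belong to a cell cycle list, in 34.3% of the 329 windows of all tested genes of those lists and in 8.52% of the 176 windows of the higher genes. Over all 32851 windows of the RefSeq table the share was 19.2%. E2F letters were present in 18.7%, 19.5% and 0.568% of the same 3 groups of windows, and in 2.26% of all windows. The CCAAT box (CCAAT, either strand), which is common in promoters of G2 genes, was present in 65.3%, 57.8% and 30.7%, and in 37.4% of all. CHR and E2F letters together were present in 8%, 5.78% and 0%, and in 0.317% of all. In the first 3 groups 68 of 81, 282 of 348 and 130 of 162 genes had a window (84%, 81% and 80.2%), some more than 1. Mitosis genes were called lower more often (43.5%) than replication genes (16.7%), and the part of list make-up in the motif shares was not tested. No difference between these shares was tested. The median GC content of these windows was 62.0%, 61.3% and 59.5%, against 52.7% over all windows. For all 210 lower genes, for the 129 of them in no cell cycle list and for all tested genes the check is void, because only 78.6%, 75.2% and 72.7% of the genes had a window, under the minimum of 80%. The windows at hand for these 3 sets held CHR letters in 29.8%, 15.4% and 13.9%, E2F letters in 13.7%, 10.8% and 3.76%, the CCAAT box in 52.7%, 45.4% and 37.2% and CHR with E2F letters in 3.9%, 1.54% and 0.52%, with a median GC content of 62.0%, 61.7% and 60.7%.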

How the data were processed

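Whole hearts of 20 mouse embryos at E13.5 were profiled by RNAseq of polyadenylated RNA. The authors deposited their normalized counts on a log2 scale, for 48795 genes, and this table is the only measurement used. Per the submitters' processing notes the tools were Trimmomatic 0.36, STAR 2.5.2a, RSEM 1.2.31 and DESeq2 with the GRCm38 genome. The kind of log2 transformation is not given in the sources used here. Such transformations can pull values together, so fold changes may be understated, most of all for low genes.

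Genes with a mean of at least 10 after undoing the log2 entered a limma fit (limma 3.58.1, R 4.3.3, with trend, 1 mean for Dp1Tyb and 1 for the 15 pooled hearts), with Benjamini-Hochberg adjustment over all 15304 tested genes and a threshold of 0.05. The spread between hearts sets the precision. Litters are not in the labels. The members and gene lists were chosen with earlier results of these data known. Named genes were the 10 higher and 10 lower protein-coding called genes with the largest fold change and no overlap, up to 4 called members per list, or 2 abundant members of a list with none, and 4 genes with printed promoters. Brca2 and Mki67 were named after their values were seen. Alternatives were leaving out each heart, lane, Xist, scaling, weighting and filter settings. The procedure was tested on simulated data with independent normal residuals. These held no correlation between genes, no outlying hearts and no sex imbalance, so that test does not cover those features.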

Additional observations from a re-analysis of the deposited data

Results flagged for a closer look

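Hearts far from the rest of their genotype were looked for in 87 genes and 3 groups, and 30 of 261 groups (11.5%) held one by Dixon's criterion, where chance gives about 1 in 20 groups. Dp1TybDyrk1a+/+/- heart 15 accounted for 11 and WT heart 10 for 8, the pair that stood apart across all genes. In heart 15 the log2 values were 18.97 for mt-Co1 and 17.97 for mt-Cytb, above the other hearts of its group, and 11.06 for Ptbp2, 10.06 for Blm and 9.377 for Rbbp8, also above. It was below its group at 9.265 for P3h4, 8.56 for Ptgis, 12.25 for Cox4i1, 13.67 for Rplp0, 14.07 for Myl4 and 13.56 for Nppa.

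WT heart 10 was above the other WT hearts at 18.54 for mt-Co1, 17.36 for mt-Cytb, 11.21 for Sh3kbp1 and 14.21 for Rpl4. It was below them at 9.425 for P3h4, 12.99 for Top2a, 13.84 for Rplp0 and 9.919 for Vwf. WT heart 2 was low at 10.57 for Tbx18, 14.77 for Hba-a2 and 14.47 for Hbb-y, globin genes of red cells. WT heart 19 was high at 8.995 for Mcm10, 4.023 for Ltf and 8.399 for Krt8, and WT heart 8 was low at 8.227 for Ifit2. Dp1TybDyrk1a+/+/- heart 9 was high for Ifit2 at 8.324 and heart 14 for Vill at 7.964. Among Dp1Tyb hearts, heart 7 was low for Epcam at 5.904 and heart 12 for Myl2 at 15.49.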

How the results depend on the processing

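Of 62 named called genes, 0 changed sign under any alternative, and 28 passed the test with Xist as a covariate and 31 against Dp1TybDyrk1a+/+/- alone. These genes were chosen as called in the same hearts that the alternatives use, so a kept sign is not independent evidence. The number called (372, with 162 higher, 210 lower and 108 without overlap) was 176 (63, 113 and 163) against Dp1TybDyrk1a+/+/- alone, 165 (71 and 94) in lanes 3 and 6, 1428 (621 and 807) with hearts weighted by quality and 79 (35, 44 and 44) with Xist as a covariate. Chosen after seeing the data, leaving out the pair of hearts that stood apart gave 984 (417, 567 and 206), that with Xist gave 490 (196, 294 and 176), and high-Xist hearts alone gave 0. Against WT alone 195 were without overlap, and with no filter 139 were lower. Leaving out 1 heart gave 94 (Dp1Tyb 4) to 735 (Dp1TybDyrk1a+/+/- 15) called, 51 to 318 higher, 43 to 417 lower and 56 to 158 without overlap. Between Dp1TybDyrk1a+/+/- and WT the 40 genes became 26 with lane, 10 in lanes 3 and 6, 142 without the pair, and 21 (without Dp1TybDyrk1a+/+/- 17) to 89 (without WT 10) on leaving out 1 heart, with 70 without Dp1TybDyrk1a+/+/- 15. Dyrk1a (0.19) was 0.19 (adjusted p = 9.96e-05) with 1 mean per genotype, 0.12 (0.0101) with both kinds weighted equally, 0.32 (6.22e-08) against WT, 0.21 (0.0464) with quality weights and -0.073 (0.209) against Dp1TybDyrk1a+/+/-. The cause was not tested. No paired analysis was possible because each heart has its own number and the labels give no litter. Depth is unknown.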
